A study of Bos taurus with 18 samples.

Results

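The genes described here encode the proteins of the mitochondrial ribosome. They were taken as all genes whose symbol in the platform annotation of the array starts with MRPL or MRPS and goes on with a number. This rule uses no measured value, and it found 75 genes on 128 probes out of 15216 genes on 21790 named probes. Of these 75 genes, 72 were above background and entered the tests, with 115 probes among them. MRPL36, MRPS9 and MRPS12 were not above background. The large subunit had 47 of its 48 genes tested and the small subunit 24 of its 26. MRPS30 and MRPS18A were counted with the large subunit, where their proteins sit in spite of the symbols. MRPS36 was counted apart, because its product belongs to the 2-oxoglutarate dehydrogenase complex.

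The mitochondrial ribosome translates the few mRNAs that the mitochondrial genome encodes, all of them for subunits of the respiratory chain and of ATP synthase. Its rRNAs come from the mitochondrial genome, while its proteins are encoded in the nucleus, made in the cytosol and imported. Many of these proteins have a counterpart in the bacterial ribosome, and others were added during the evolution of mitochondria. Cumulus cells surround the oocyte, and they take up glucose and pass pyruvate and other metabolites to it. In humans, inherited defects of several proteins of mitochondrial translation are known to cause ovarian failure.

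The samples were cumulus cells of Holstein cows, collected in 24 sessions from 6 animals. All groups had received FSH, the hormone that drives follicle growth, as 6 doses of 40 mg at 12 h intervals over 3 days, followed by coasting, a time without FSH. The reference group had coasted for 20 h and came from follicles of 3 to 5 mm. The other groups had coasted for 44 or 68 h, both from follicles of 6 to 8 mm, or for 92 h, from follicles of more than 8 mm. Each of the 18 arrays compared 20 h RNA with RNA of 1 longer time in the other colour, with 3 replicates per time and 2 dye orientations per replicate. All values below are log2 ratios of the longer time over 20 h, averaged over both orientations. No group without FSH treatment was analysed here, and the cows behind each replicate are not given, so a replicate may hold pooled animals, and the p-values speak only of the spread among these samples. Coasting time and follicle size changed together at 92 h and cannot be told apart there. In RNA from whole cell samples, fewer cells of a type and less RNA per cell cannot be told apart either.

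The share of gene probes above background ranged from 26.5% to 66.2% in the channels of the longer times and from 35.1% to 68.7% in those of 20 h. The 15 markers of cumulus and granulosa cells were all above background. Across all genes, the replicates correlated poorly at 44 h (r from -0.18 to 0.18), better at 68 h (0.14 to 0.49) and best at 92 h (0.42 to 0.68). With so few arrays, the precision of each value is limited. The arrays of 92 h stood on slides of their own, 1 per dye orientation, so slide and time cannot be told apart at 92 h. Slide and orientation cannot be told apart there either, nor at 44 h, where each orientation also stood on 1 slide.

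At 92 h, 4 of the 72 mitochondrial ribosomal protein genes passed the test. MRPS22, MRPS23 and MRPS27, all of the small subunit, fell, and MRPL10 of the large subunit rose. These 4 genes were 5.56% of those tested, against 256 of 11044 genes (2.32%) over the whole array, of which 137 rose (1.24%) and 119 fell (1.08%). The test was limma's moderated test, its p-values adjusted over all 11044 genes by the Benjamini-Hochberg method, with a threshold of 0.05. All 4 calls were lost, with adjusted p from 0.076 to 0.124, when the prior variance was trended with intensity and made robust, a setting under which 0 genes of the array were called. All 4 were also lost with median centring of the arrays in place of loess normalization (adjusted p from 0.058 to 0.434 by limma). The same held with each time fitted alone, without replicate 1 at 92 h or without replicate 2 at 92 h. Without replicate 3 at 92 h, MRPS22 alone was called, with 65 calls among all genes. Leaving out a replicate of an earlier time changed the calls of the list and, in parentheses, of all genes. They were 10 (498) without 44 h replicate 3, 5 (526) without 44 h replicate 2 and 5 (285) without 68 h replicate 2. They were 2 (170) without 44 h replicate 1, 2 (102) without 68 h replicate 1 and 2 (95) without 68 h replicate 3. With the replicate number as a block, MRPS22 (adjusted p = 0.029 by limma) and MRPS23 (0.021) were called, and MRPS27 (0.087) and MRPL10 (0.084) were not.

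MRPS22 encodes a small-subunit protein with no bacterial counterpart, and in humans its variants are known in primary ovarian insufficiency and in infantile mitochondrial disease. Its log2 ratios at 92 h were -0.45, -0.57 and -0.38 in replicates 1, 2 and 3. All 6 arrays lay below 0. With the coasted RNA in Cy3 they ranged from -0.39 to -0.09 and with it in Cy5 from -0.76 to -0.66. With the Cy3 orientation alone the mean was -0.22 (adjusted p = 0.0846 by limma). The mean of -0.47 ± 0.10 (SD, n = 3), or 0.723 of the 20 h level, passed limma's test with adjusted p = 0.0131. At 68 h the 3 replicates read -0.22, -0.22 and -0.20, and at 44 h 0.06, -0.11 and 0.03. Averaged over both orientations, the 68 h values did not overlap those of 44 h or 92 h. However, the mean of -0.21 at 68 h did not pass (adjusted p = 0.188 by limma). Single arrays at 68 h ranged from -0.06 to 0.01 with the coasted RNA in Cy3 and from -0.45 to -0.38 in Cy5. The means at 44 h were 0.18 in Cy3 and -0.20 in Cy5. A second, dimmer probe of MRPS22 had a mean of -0.16 at 92 h, with replicates of -0.32, -0.57 and 0.42. With its kept probes averaged, MRPS22 had a mean of -0.31 and was not called (adjusted p = 0.248 by limma). The call was also lost in the deposited value table (adjusted p = 0.361 by limma) and with a stricter filter (0.057).

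MRPS23 encodes another small-subunit protein without a bacterial counterpart. Its log2 ratios at 92 h were -0.97, -0.94 and -0.63, the lowest mean among the 4 called genes (-0.85 ± 0.18, SD, n = 3). This is 0.556 of the 20 h level, with adjusted p = 0.0263 by limma. At 68 h the replicates read -0.58, -0.69 and -0.46, which missed the threshold (mean -0.58, adjusted p = 0.166 by limma), and at 44 h they lay on both sides of 0 (-0.19, -0.30 and 0.30). Its arrays showed a strong dye split. At 92 h they ranged from -1.43 to -1.15 with the coasted RNA in Cy3 and from -0.55 to -0.12 with it in Cy5, so that all 6 arrays were below 0. With the Cy5 orientation alone the mean was -0.39 (adjusted p = 0.169 by limma). The other probes of MRPS23 had means of -0.70 and -0.10 at 92 h, the latter on a dim probe.

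MRPS27 encodes a pentatricopeptide repeat protein that binds RNA in the small subunit. Its log2 ratios at 92 h were -0.64, -0.42 and -0.66, a mean of -0.57 ± 0.13 (SD, n = 3), or 0.673 of the 20 h level, with adjusted p = 0.0349 by limma. Unlike MRPS22 and MRPS23, it read about as low at the earlier times. The replicates were -0.69, -0.74 and -0.45 at 44 h (adjusted p = 0.283 by limma) and -0.47, -0.76 and -0.90 at 68 h (adjusted p = 0.0806 by limma), and the ranges of the 3 times overlapped. The dye split was again wide. The arrays at 92 h ranged from -1.13 to -0.77 with the coasted RNA in Cy3 and from -0.25 to -0.07 with it in Cy5. With the Cy5 orientation alone, the mean of -0.17 did not pass (adjusted p = 0.301 by limma). The other probe of MRPS27 was not above background.

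MRPL10 encodes the protein that anchors the flexible stalk of the large subunit, through which translation factors are recruited. Its log2 ratios were 0.56, 0.29 and 0.48 at 92 h, with all 6 arrays above 0. The mean was 0.44 ± 0.14 (SD, n = 3), 1.36 times the 20 h level, with adjusted p = 0.0364 by limma. At 68 h it read 0.40, 0.42 and 0.10 (adjusted p = 0.218 by limma), and at 44 h -0.09, -0.07 and -0.01. Both later times lay above 44 h in every replicate. A single probe measured this gene.

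**Figure D1:**
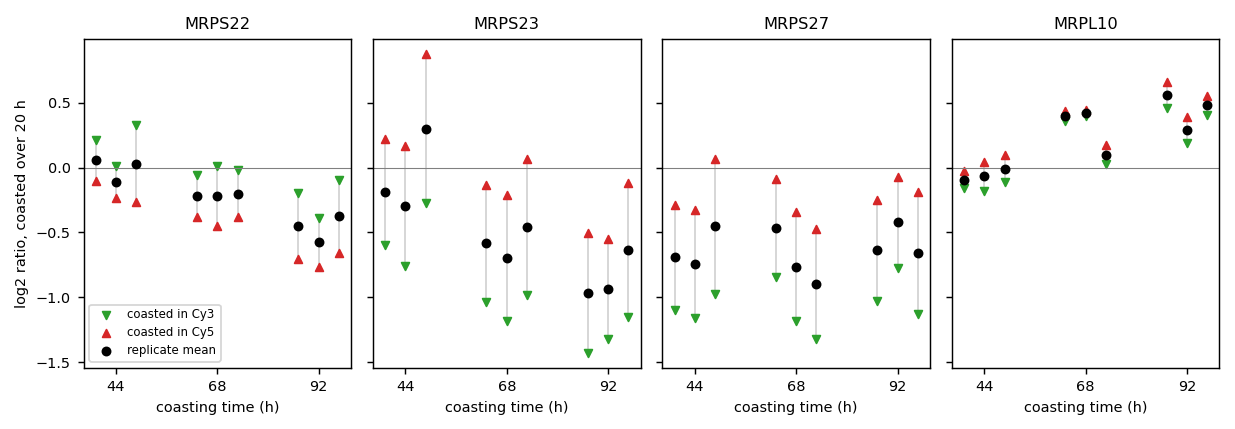
Log2 ratio over 20 h (y axis) of the 4 called genes at 44, 68 and 92 h (x axis), with replicates 1, 2 and 3 from left to right in each time. Triangles are single arrays by the dye of the coasted RNA, and black circles are replicate means. MRPS22 and MRPS23 had their lowest means over the 3 replicates at 92 h (-0.47 and -0.85). The means of MRPS27 lay between -0.57 and -0.71 at all times. The mean of MRPL10 went from -0.06 at 44 h to 0.44 at 92 h.

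Over the list, the median log2 ratio was -0.15 at 92 h, and 54 of 72 genes (75%) lay below 0. Over all genes tested the median was 0.00 and 50.4% lay below 0. In the small subunit, 22 of 24 genes lay below 0 with a median of -0.31, and 3 fell and 0 rose. In the large subunit, 31 of 47 lay below 0 with a median of -0.12, and 1 rose and 0 fell. These medians and counts describe the lists, and no test was run on them. The median of the list was -0.16 in replicate 1, -0.28 in replicate 2 and 0.02 in replicate 3, so the lower level was seen in replicates 1 and 2 and not in replicate 3. In the small subunit the medians of the replicates were -0.33, -0.46 and -0.10, and in the large subunit -0.13, -0.19 and 0.12. Arrays with the coasted RNA in Cy3 gave a median of -0.04 over the list, and those with it in Cy5 gave -0.25. In the small subunit these were -0.23 and -0.32, and in the large subunit -0.01 and -0.20.

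**Figure D2:**
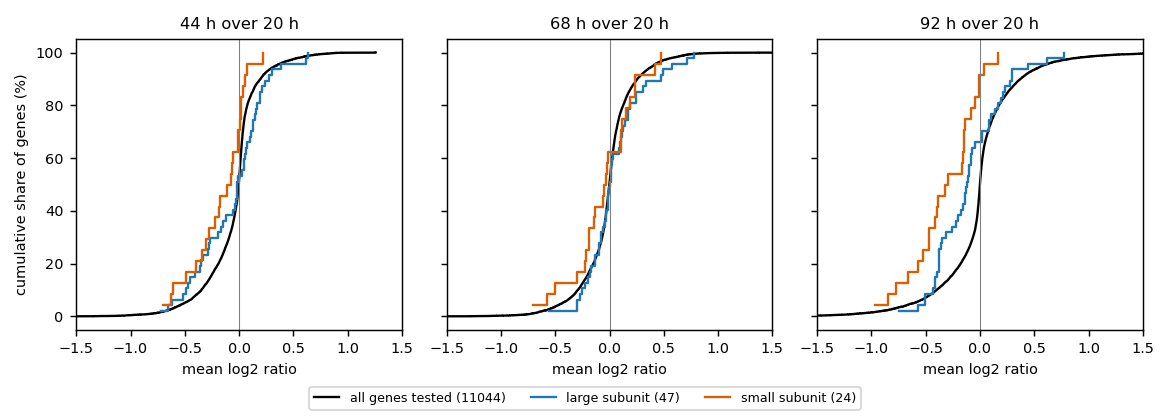
Cumulative share of genes in percent (y axis) by mean log2 ratio over 20 h (x axis) at 44, 68 and 92 h, for the large subunit (47 genes), the small subunit (24) and all 11044 genes tested. At 92 h the small-subunit curve lies to the left of the others (median -0.31, against -0.12 for the large subunit and 0.00 for all genes). The curve of all genes is steep at 0, and the part of dim probes in this was not tested.

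The 3 replicates had the same sign at 92 h in 30 of the 72 genes, 23 of them below 0 and 7 above. This is 41.7% of the list, against 45.9% of all genes tested. At an unadjusted p under 0.05, 13 genes lay below 0 and 3 above. Together they were 22.2% of the list, against 18.03% of all genes, and those below 0 were 18.1%, against 8.25%.

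Beside the called genes, the lowest small-subunit genes with 1 sign in all replicates were MRPS11 and MRPS5. MRPS11, whose counterpart in bacteria lines the path of the mRNA on the platform of the small subunit, read -0.67, -0.79 and -1.45 at 92 h. Its mean of -0.97 ± 0.42 was the lowest of the list and did not pass (adjusted p = 0.295 by limma). Its 4 probes disagreed in size, with means at 92 h from -0.97 to -0.08, the widest span in the list. MRPS5, related to the bacterial protein at the mRNA entry of the small subunit, read -0.51, -0.72 and -0.74 (mean -0.66, adjusted p = 0.424 by limma). At 44 h the same gene read -0.09, 0.06 and -2.07, and this wide spread entered its test.

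MRPS18A, MRPS18B and MRPS18C are 3 paralogues of bacterial S18. Only MRPS18B and MRPS18C belong to the small subunit. MRPS18C read -0.98, -0.85 and 0.42 at 92 h, so its replicates disagreed in sign. MRPS18B read 0.11, -0.05 and -0.09, and MRPS18A read 0.00, -0.04 and -0.09. None of the 3 passed at any time. The highest small-subunit gene at 92 h was MRPS7, with a mean of 0.17, and MRPS35 (0.03) was the other gene above 0; both were singled out after their values were seen.

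In the large subunit, the genes of the stalk and its base were read apart. MRPL11, at the base of the stalk, read 0.62, 0.11 and 1.58 at 92 h, the highest mean of the list (0.77 ± 0.75, adjusted p = 0.342 by limma). Its spread exceeded that of MRPL10, and its 44 h values (0.35, -0.04 and -0.75) lay on both sides of 0. MRPL12, the stalk protein itself, read -0.34, 0.21 and -1.02 at 92 h and -0.20, 1.92 and -0.82 at 44 h. MRPL54, a protein near the stalk without a bacterial counterpart, read 0.00, -0.10 and -0.26 at 92 h, against 0.56, 0.14 and 0.74 at 68 h. Of these 4 stalk genes, MRPL10 was called and the others were not.

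Other large-subunit genes high at 92 h were MRPL9, MRPL13 and MRPL52, each above 0 in all 3 replicates. MRPL9 read 0.60, 0.30 and 0.95 (mean 0.62, adjusted p = 0.095 by limma). It was above 0 in all 9 replicates of the 3 times. MRPL13 read 0.13, 0.24 and 0.52 (mean 0.30, adjusted p = 0.390 by limma). MRPL52, which has no bacterial counterpart, read 0.13, 0.44 and 0.30 (mean 0.29, adjusted p = 0.609 by limma). None of the 3 passed.

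The lowest large-subunit gene with 1 sign was MRPL14, a protein of the face that meets the small subunit, with -0.42, -0.80 and -1.01 at 92 h (mean -0.74, adjusted p = 0.145 by limma). Its second probe was dim and read -0.04. MRPL1, of the stalk that guides the leaving tRNA, read -0.46, -0.58 and -0.68 (mean -0.57, adjusted p = 0.0728 by limma). MRPL19, which has a bacterial counterpart, read -0.43, -0.79 and -0.29 (mean -0.51, adjusted p = 0.244 by limma). All 3 replicates of these genes lay below 0, and none of them passed. MRPL39 read -0.47, -0.77 and -0.01 on the brightest of its 4 probes, whose means ranged from -0.47 to -0.01. MRPL49 read -0.09, -0.46 and -0.51, and its second probe had a mean of 0.07.

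Among the proteins at the exit of the peptide tunnel, MRPL45, which holds the ribosome to the inner membrane, read -0.30, -0.11 and -0.36 at 92 h (mean -0.25, adjusted p = 0.814 by limma). MRPL23, at the same exit, read -0.17, 0.16 and -1.52. MRPL17, also there, read -0.05, -0.01 and 0.31. These 3 genes differed in sign between or within themselves, and none passed. MRPL41, reported to bind Bcl-2 in human cells, read -0.08, 0.09 and -1.14, and MRPS30, a large-subunit protein, read -0.19, 0.07 and 0.43. MRPS36, apart from both subunits, read -0.40, -0.77 and 0.06.

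**Figure D3:**
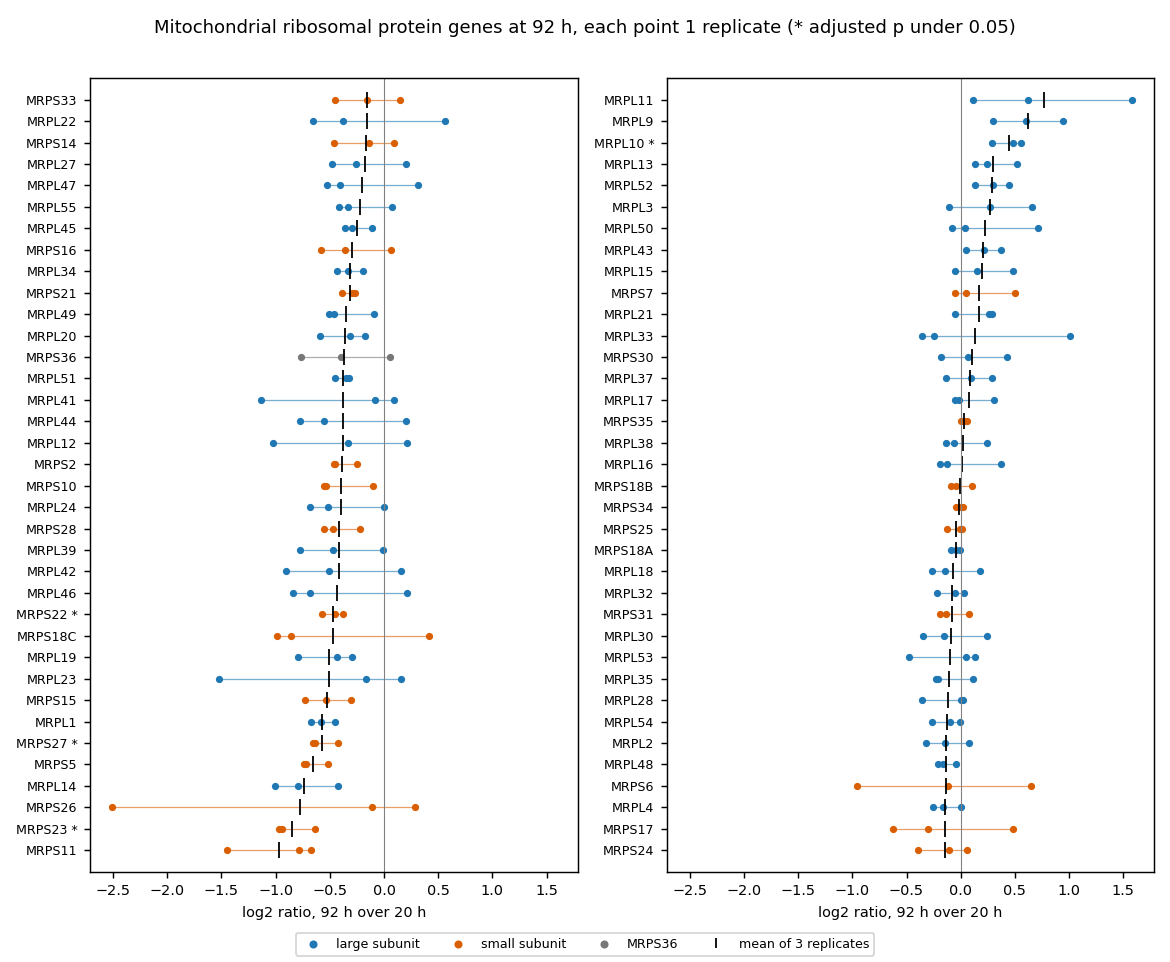
Log2 ratio at 92 h over 20 h (x axis) of the 72 genes tested, ordered by their mean from the bottom left (MRPS11, -0.97) to the top right (MRPL11, 0.77). Points are the 3 replicates, coloured by subunit, the vertical tick is their mean and the thin line their range. An asterisk marks the 4 genes past the threshold. The left panel holds most of the small-subunit genes.

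At 68 h, 0 of the 72 genes passed, as did 0 of all 11044 genes (0%). At an unadjusted p under 0.05, 6 genes of the list were above 0 and 3 below (12.5% together, against 11.02% of all genes). The 3 replicates had the same sign in 44.4% of the list, against 42.9% of all genes. The median over the list was -0.01, with 39 genes below 0, and the medians of the replicates were -0.04, 0.01 and 0.04. The small subunit stood at -0.04 and the large at 0.01. The highest genes with 1 sign belonged to the large subunit. MRPL11 read 0.27, 1.68 and 0.38, and MRPL52 read 0.43, 1.20 and 0.51. In both, replicate 2 was the highest. MRPL50, a protein without a bacterial counterpart, read 0.74, 0.68 and 0.32 (mean 0.58, adjusted p = 0.292 by limma). MRPL9 had a mean of 0.49 and MRPL54 of 0.48. The lowest with 1 sign were MRPS27 and MRPS23, given above, then MRPL23 (mean -0.56), MRPL19 (-0.30) and MRPL1 (-0.30). MRPL23 owed its mean mostly to replicate 2, with -1.38 against -0.12 and -0.18.

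At 44 h, 0 of the 72 genes and 0 of all 11044 genes (0%) passed. At an unadjusted p under 0.05, 2 genes of the list were above 0 and 6 below (11.1% together, against 9.57% of all genes). The median was -0.03, with 43 genes below 0. The 3 replicates had the same sign in 19.4% of the list, against 25.6% of all genes tested. Among genes with 1 sign, MRPL13 (0.22, 0.10 and 0.82), MRPL33 (mean 0.24), MRPS28 (0.22), MRPL30 (0.19) and MRPL9 (0.12) were the highest. MRPL20 (-0.39, -1.51 and -0.06), MRPS27, MRPL46 (-0.27, -0.61 and -0.98), MRPL17 (-0.20, -0.44 and -0.42) and MRPS21 (-0.06, -0.01 and -0.95) were the lowest. Among these lowest genes, MRPS27 and MRPL17 had the closest replicates.

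The F-test over the 3 times called 2 of the 72 genes, MRPS22 and MRPS27, both with adjusted p = 0.0323 by limma, against 74 of all 11044 genes (0.67%). With the replicate number as a block 0 of the 72 were called, and also 0 when any single replicate of 68 or 92 h was left out. The differences between longer times were tested through the 20 h RNA, which these comparisons share. Of the list, 0 genes passed between 92 and 44 h, between 92 and 68 h or between 68 and 44 h, and of all genes 0 passed in each of these (0%). At an unadjusted p under 0.05, 2 genes of the list were higher and 6 lower at 92 h than at 44 h, against 569 and 288 of all genes. Against 68 h, 0 were higher and 6 lower at 92 h (428 and 228 of all genes), and 4 were higher and 2 lower at 68 h than at 44 h (290 and 306 of all genes). The smallest adjusted p in the list were 0.145, 0.723 and 0.50 in these comparisons. The median difference between 92 and 68 h was -0.18 over the list, with 59 of 72 genes below 0. Over the small subunit it was -0.27, with 20 of 24 below 0. Over all genes it was 0.00. The fall of MRPS22 and MRPS23 against 20 h was therefore not shown to differ from their change at 44 or 68 h.

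The median SD between replicates over the list was 0.40 at 44 h, 0.20 at 68 h and 0.23 at 92 h, against 0.22, 0.14 and 0.14 over all genes tested. The part of dim probes, whose ratios are compressed, in this difference was not tested. Changes beyond 1 on the log2 scale were seen in 10 genes of the list (13.9%, against 8.67% of all genes) in replicate 2 at 44 h and in 12 (16.7%, against 7.91%) in replicate 3. They were seen in 5 genes (6.94%, against 4.72%) in replicate 2 at 68 h and in 8 (11.1%, against 5.26%) in replicate 3 at 92 h. The other 5 replicates had 0 such genes in the list, while 2.65% and 5.57% of all genes passed this size in replicates 1 and 2 at 92 h, and 0.299% to 0.878% in the other 3. In replicate 3 at 44 h, MRPL16 read -2.14, MRPS5 -2.07 and MRPL55 -1.79. The other kept probes of MRPL55 read -1.63, -0.93 and -0.30 there. In replicate 2 at 44 h, MRPL12 read 1.92 and MRPL15 1.81. Their other kept probes did not share this, with 0.03 for a dim probe of MRPL12 and -0.10 and 0.03 for MRPL15. MRPS26 read -2.20 in replicate 2 at 68 h and -2.51 in replicate 3 at 92 h, and its other 7 values lay between -0.78 and 0.53. A second, dimmer probe of MRPS26 read -0.92 and -1.04 in these replicates. MRPL23 read -1.44, -1.38 and -1.52 in replicate 3 at 44 h, replicate 2 at 68 h and replicate 3 at 92 h, and its second probe read -1.51, -1.44 and -1.57 in the same replicates. MRPL16, MRPL55, MRPL15 and MRPS26 were singled out after their values were seen. None of these large single values was shared by the 3 replicates of a time.

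**Figure D4:**
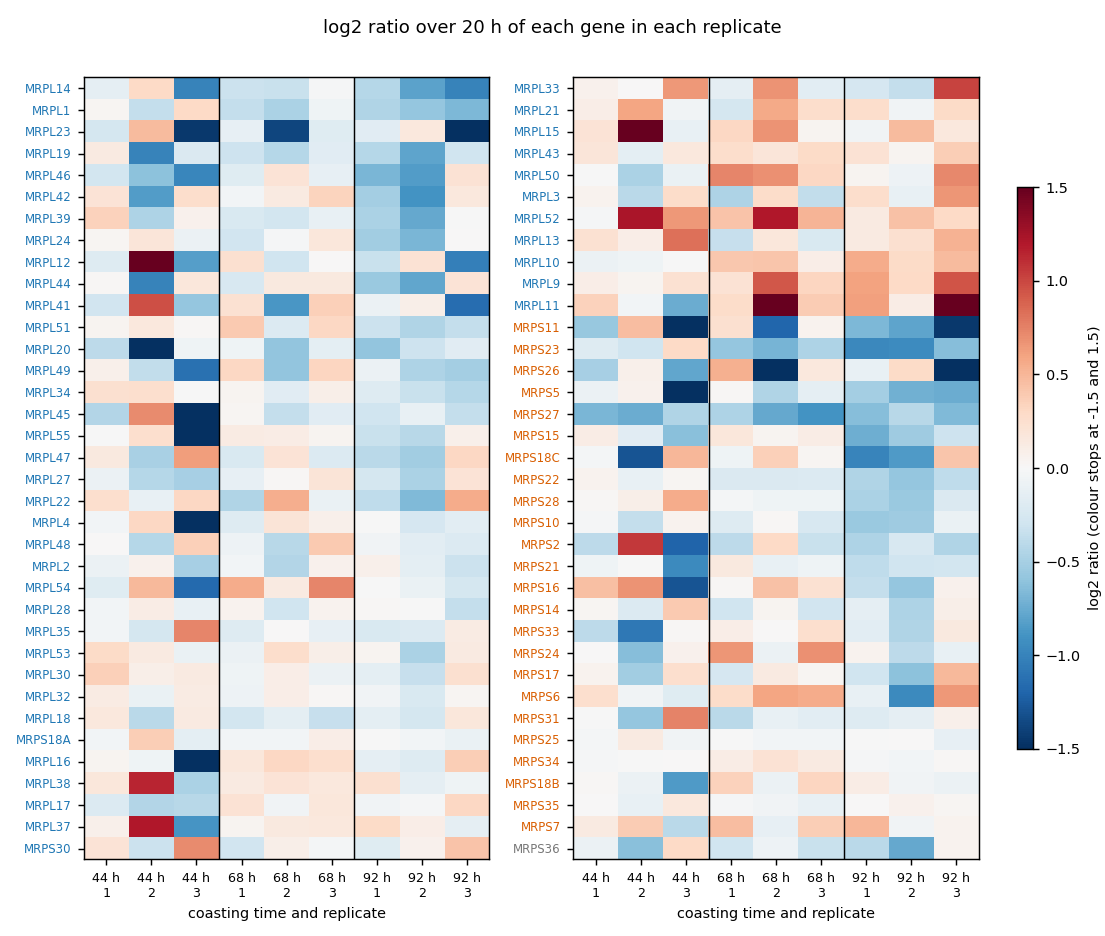
Log2 ratio over 20 h of the 72 genes (rows) in the 9 replicates (columns, by coasting time), with large-subunit names in blue, small-subunit names in orange and MRPS36 in grey. The colour scale ends at -1.5 and 1.5. The strongest colours stand in replicates 2 and 3 at 44 h, replicate 2 at 68 h and replicate 3 at 92 h, while MRPS27 is blue in all 9 columns.

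Of the 72 genes, 32 had more than 1 probe above background, and in 8 of these the means of the probes at 92 h had opposite signs. MRPL46 and MRPS11 are neighbours in the bovine RefSeq annotation, the only such pair of the list. Both had means below 0 at 92 h (-0.44 and -0.97) and at 44 h (-0.62 and -0.61), and neither passed. Of the list, 75% had means below 0 at 92 h and 59.7% at 44 h. Replicates disagreed in sign for MRPL46 at 92 h (-0.68, -0.84 and 0.21) and for MRPS11 at 44 h (-0.57, 0.46 and -1.71).

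Among translation factors, assembly genes and aminoacyl-tRNA synthetases of the mitochondrion, 4 of 49 (8.16%) were called at 92 h at an adjusted p under 0.05 by limma. Over all genes tested this share was 2.32%. Of 13 translation factors tested, MTIF3 rose and GFM1 fell. MTIF3, an initiation factor, read 0.60, 0.44 and 0.46 (mean 0.50, adjusted p = 0.031). GFM1, an elongation factor, read -0.73, -0.51 and -1.0 (mean -0.75, adjusted p = 0.046). Of 20 genes of ribosome assembly and RNA modification, TRUB2, a pseudouridine synthase of mitochondrial RNA, fell, with -0.64, -0.82 and -0.90 (mean -0.78, adjusted p = 0.022). RPUSD4, a pseudouridine synthase of the large rRNA, was next with a mean of 0.24 (adjusted p = 0.096). Of 16 mitochondrial aminoacyl-tRNA synthetases, MARS2 rose, with 0.37, 0.63 and 0.57 (mean 0.53, adjusted p = 0.039), and RARS2 had a mean of -0.61 (adjusted p = 0.125). The medians of these 3 groups at 92 h were -0.03, 0.02 and -0.04, nearer to 0 than that of the ribosomal proteins.

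A further group of 8 held ribosomal proteins under other symbols and the insertase OXA1L, and 0 of them passed at any time. At 92 h, 1 of them was above 0 and 0 below at an unadjusted p under 0.05. OXA1L, which receives the new proteins at the inner membrane, read 1.21, 1.09 and 1.38 at 92 h (mean 1.23, adjusted p = 0.066). MRPL57, listed on the platform as MRP63, read -0.24, -0.41 and -2.23 at 92 h and -0.46, 0.38 and -3.17 at 44 h, so that its replicate 3 stood apart at both times.

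Of 14 genes of mitochondrial transcription and RNA processing 0 passed, with 1 above and 1 below 0 at an unadjusted p under 0.05. Of 11 regulators of mitochondrial biogenesis, MYC rose at 92 h, with 1.18, 1.84 and 1.56 (mean 1.52, adjusted p = 0.022). Of 22 genes of protein import and quality control, TIMM23 of the inner-membrane import channel fell, with -0.73, -0.64 and -0.93 (mean -0.77, adjusted p = 0.035). The mitochondrially encoded genes had no named probe here, so the rRNAs and the products of this ribosome were not measured.

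The ribosomal proteins of the cytosol and the nuclear genes of the respiratory chain were read beside the list. Of 68 cytosolic ribosomal protein genes, 3 rose at 92 h (RPL10A, RPS7 and RPL23A) and 0 fell, 5 lay below 0 and the median was 0.38. Their replicates had medians of 0.33, 0.34 and 0.43. Of 61 genes of the respiratory chain and ATP synthase, 2 fell at 92 h (NDUFB6 of complex I, mean -0.65, and CYCS, cytochrome c, mean -0.76) and 0 rose. Of these, 52 lay below 0, with a median of -0.24 and replicate medians of -0.22, -0.45 and 0.04. The mitochondrial ribosomal proteins thus had medians below 0 in replicates 1 and 2 at 92 h and near 0 in replicate 3, as did the respiratory chain, and the cytosolic ribosomal proteins stood above 0 in all 3. Over all genes tested, 1.24% rose and 1.08% fell at 92 h. No test compared these groups.

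The markers of the cumulus cells themselves were read in the same replicates. Of the 15 cumulus and granulosa markers, 0 passed at 92 h, with 0 above and 1 below 0 at an unadjusted p under 0.05, and their medians in replicates 1, 2 and 3 were -0.43, -0.91 and 0.05. At 44 h their medians were 0.05, -0.73 and -0.35, where those of the list were 0.02, -0.05 and -0.06. Their summed level ranged from 16.9 to 17.7 on the log2 intensity scale in the 20 h channels and from 16.1 to 17.5 in those of 92 h. Of the theca markers 8 of 11 were above background, and MYH11 (mean 1.47, adjusted p = 0.012 by limma) and PDGFRA (1.66, adjusted p = 0.044) rose at 92 h. Of these 8 genes, 4 lay below 0 at 92 h, the lowest at -0.48. Their summed log2 level lay between 13.2 and 13.8 at 20 h and between 13.7 and 14.5 at 92 h, and COL1A2, DCN and LHCGR were not above background. Of the leukocyte markers 5 of 11 were above background, and CD68 rose (mean 0.93, adjusted p = 0.046) while 2 of the 5 lay below 0 and the median was 0.05. Their summed log2 level lay between 11.3 and 11.8 at 20 h and between 11.5 and 11.9 at 92 h, and CD14, CORO1A, CSF1R, ITGB2, LYZ and TYROBP were not above background. Of the oocyte markers 7 of 13, of the endothelial markers 5 of 9 and of the erythrocyte markers 4 of 5 were above background. None of these last 3 groups had a called gene. The part of these markers in the values of the mitochondrial ribosomal proteins was not tested.

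**Figure D5:**
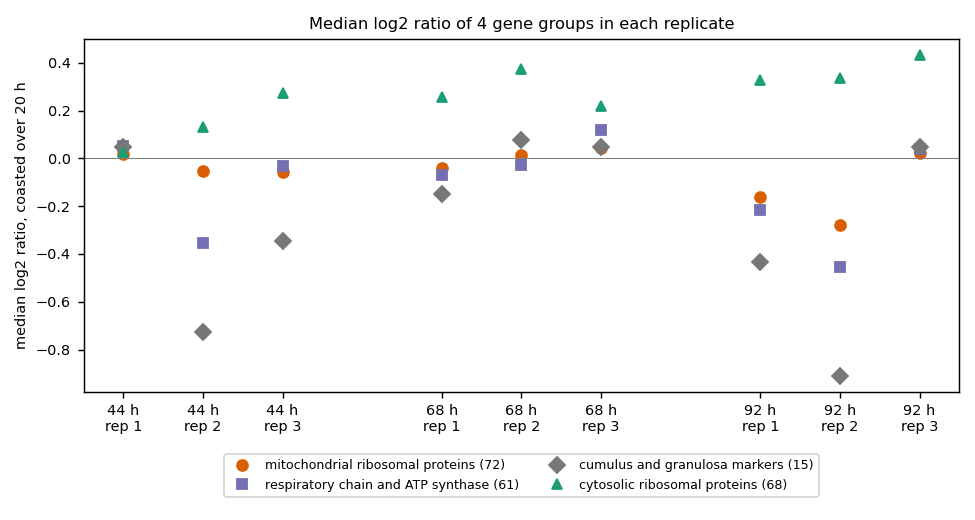
Median log2 ratio over 20 h (y axis) of the 72 mitochondrial ribosomal protein genes, 61 genes of the respiratory chain and ATP synthase, 15 cumulus and granulosa markers and 68 cytosolic ribosomal protein genes in each replicate (x axis). At 92 h the first 3 groups lay below 0 in replicates 1 and 2 and between 0.02 and 0.05 in replicate 3, and the cytosolic ribosomal proteins lay between 0.33 and 0.43 in all 3.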

How the data were processed

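Cumulus RNA was amplified, labelled with Cy3 or Cy5 and hybridised to 2-colour Agilent arrays, per the labels' protocols. The deposited scanner tables hold spot and local background intensity in both channels, not normalized, per the file headers. The authors' deposited value table holds log2 ratios of Cy5 over Cy3, a direction found by comparison with the scanner intensities; its normalization is unknown, and it served as an alternative.

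Background was corrected with normexp (offset 50), and arrays were normalized by loess, which would hide a shift shared by most genes. Arrays of the same time and number in opposite orientations were averaged as dye swaps, a reading the labels do not state outright. Spots counted as above background past the mean plus 2 SD of 153 negative controls, and probes were kept when this held at any time on at least 50% of its arrays. The brightest kept probe stood for a gene. Ratios of 11044 genes were tested two-sided by limma 3.58.1 (R 4.3.3), fitting each time as a coefficient, with 6 residual and 1.13 prior degrees of freedom, and the script was tested on simulated data. Alternatives covered background, normalization, filter, probes, dyes, slides, prior, replicate block and single replicates.

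Deviations of equally numbered values correlated with r of 0.36, 0.26 and 0.24 between 92 and 44 h, so the numbers were taken as a possible pairing of these times. The reported fit and its comparisons between times held no block for it. A fit with the replicate number as a block was run as an alternative. For pairs with 68 h r ranged from -0.35 to -0.03. The genes named are those past the threshold, the 5 highest and lowest at each time with 1 sign in all replicates, the 5 whose probes differ most at 92 h, a few of known role, and in related lists the 2 of smallest p and any past the threshold. The genes and lists were chosen with earlier results of these data known.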

Additional observations from a re-analysis of the deposited data

Results flagged for a closer look

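Groups of 3 replicates were too small for a search for single outlying samples. In 7 of the 72 genes (9.72%, against 5.92% of all genes tested), all 3 replicates of a time lay on the other side of 0 from all 3 replicates of another time. The differences between times were tested through the 20 h RNA with limma, and none passed. For MRPL10, the mean log2 ratio at 92 h was 0.50 above that at 44 h (adjusted p = 0.257 by limma), and that at 68 h was 0.36 above it (adjusted p = 0.514). MRPL50 at 68 h stood 0.77 above its value at 44 h (adjusted p = 0.573 by limma). MRPL51 differed by -0.44 between 92 and 44 h (adjusted p = 0.524 by limma). MRPL54 at 92 h differed by -0.60 from its value at 68 h (adjusted p = 0.939 by limma). MRPS15 and MRPS35 differed by -0.63 and 0.093 between the same times (adjusted p = 0.765 and 0.982 by limma). MRPS28, whose product is related to bacterial S1, differed by -0.64 between 92 and 44 h (adjusted p = 0.308 by limma) and by -0.28 between 68 and 44 h (adjusted p = 0.999). Its replicates read 0.02, 0.09 and 0.56 at 44 h, -0.03, -0.06 and -0.07 at 68 h and -0.47, -0.55 and -0.22 at 92 h.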

How the results depend on the processing

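The median of the list at 92 h stayed below 0 in every setting tried, from -0.26 (deposited value table) to -0.04 (Cy3 orientation alone). MRPS22, MRPS23, MRPS27 and MRPL10 kept their direction in all 25 alternative settings, passing in 16, 16, 14 and 14 of them. Many of these settings, such as the prior, the blocks or a left-out earlier replicate, cannot change the 92 h means. Direction was fixed in advance there, and only the p-values could move. The number of genes of the list called at 92 h (4 in the reported fit) and, in parentheses, of all genes (256) was 1 (68) with median centring in place of loess, of which 0 (13) rose. The 1 gene of the list called with median centring was not among the 4 of the reported fit. The number was 4 (459) with no background correction and 5 (472) with plain subtraction. It was 1 (290) in the deposited value table, 2 (303) with a stricter filter and 3 (242) with the kept probes averaged. It was 9 (1489) with the Cy3 orientation alone and 5 (360) with Cy5 alone. It was 0 (0) with a trended and robust prior, 0 (160) with each time fitted alone and 10 (743) without the 44 h values, a setting added after the data were seen. Leaving out single replicates gave 0 to 10 (0 to 526). The fit with a replicate block called 2 (117) at 92 h and 0 genes of the list by the F-test, and 0 of the list between 92 and 44 h as without it; the block moved no other count of the list. With slide as a random block over 18 arrays, both arrays of a replicate count as separate values, and the correlation within slides was -0.25. That fit called 35 (4494) at 92 h, 9 (1062) at 68 h and 29 (3939) at 44 h. Between 92 and 44, 92 and 68, and 68 and 44 h it called 21, 7 and 4 of the list. Calls among all genes were not counted for these comparisons between times, so the counts cannot be read as particular to the list.

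At 68 h, where the reported fit called 0, median centring called 4 genes of the array, Cy5 alone 62 (1 of the list), Cy3 alone 1822 (12 of the list), the fit without 44 h values 56, and single replicates left out 0 to 21. At 44 h, Cy3 alone called 92 (3 of the list). Slide as a fixed block over the 12 arrays of 44 and 68 h called 269 genes at 68 h (4 of the list) and 4 at 44 h. The F-test, which called 2 of the list, called 0 with median centring or the trended prior, 1 in the deposited table, 1 with probes averaged, 5 with Cy5 alone, 13 with Cy3 alone, 51 with slide as a random block and 0 to 3 without single replicates. Calls of the F-test among all genes were not counted in these settings, so these counts cannot be read as particular to the list. The median of the list at 44 h moved from -0.03 to -0.23 with median centring, -0.16 with Cy5 alone and -0.13 with the slide block. At 68 h it was 0.068 with Cy3 alone and from -0.032 to 0.031 without single replicates. The cause of these differences was not tested. Dim probes limit MRPS35, MRPS34 and MRPL2, whose ratios are compressed.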
